A study of Homo sapiens with 28 samples.

Results

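The genes described here were raised by interleukin-13 (IL-13) and lowered by vitamin D in EPC2 cells, a telomerase-immortalised line of human esophageal epithelium. A gene was a member when it reached at least 1 RPKM (reads per kilobase of gene, scaled to library size) untreated or with IL-13, its RPKM ratio of IL-13 to untreated was at least 1.3, and its ratio of vitamin D to untreated was at most 0.77, with 0.1 added to each RPKM. TGM2 and symbols starting with SERPINB, KLK, KRT, SPRR, LCE or S100A were left out. The rule found 105 members among the 23533 genes of the tables, of which 11324 reached the minimum level once those symbols were left out.

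The series held 28 samples of this 1 line, all cultured in the same serum-free keratinocyte medium at high confluence for 6 h of treatment. RNA was sequenced in 12 samples, 3 each of untreated cells, cells given IL-13 at 100 ng/ml, cells given vitamin D at 100 nM, and cells given both at those doses. The other 16 samples were chromatin immunoprecipitations (ChIP), with 1 library per condition: the histone marks H3K27ac, H3K9ac and H3K4me3 in all 4 conditions, the transcription factor STAT6 untreated and with IL-13, and the vitamin D receptor VDR untreated and with vitamin D. The labels do not give the form of vitamin D or say whether the 3 RNA samples of a group were separate cultures. The RNA tables hold 1 RPKM value per group, and the spread among the 3 samples of a group is unknown here. The log2 fold changes and adjusted p-values against untreated and against vitamin D below are those of the authors' deposited tables, and each standard error (SE) was derived from the deposited fold change and p-value.

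IL-13 is a type 2 cytokine that acts through a receptor containing IL4R and IL13RA1 and makes STAT6 enter the nucleus and bind DNA. In esophageal epithelium it is known as the driver of the transcript changes of eosinophilic esophagitis. Vitamin D, once in its active form, binds VDR, which pairs with the retinoid X receptor on DNA and raises or lowers genes, and in squamous epithelia it is known for effects on proliferation and differentiation.

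Both agents acted on these cells. CYP24A1, the enzyme that breaks down active vitamin D and a classic VDR target, was at 0.476 RPKM untreated, 0.281 after IL-13, 560.5 after vitamin D and 463 after both. CAPN14, a protease of the esophagus induced by IL-13, was at 10.2 RPKM untreated, 358 after IL-13, 14.8 after vitamin D and 463 after both. STAT6 itself was at 30.2, 27.2, 26.9 and 24.5 RPKM in the same order, and VDR at 9.12, 11.2, 7.62 and 9.74 RPKM. Of 9 squamous epithelial markers, 8 were at 1 RPKM or more in every group and EPCAM was below it. All 8 leukocyte, 5 endothelial and 6 melanocyte and neural markers were under 1 RPKM in every group, as were 7 of 8 fibroblast markers. COL1A1, the exception, reached 15.2 RPKM at most, and the summed level of the fibroblast markers was 15.4 RPKM untreated, 10.2 after IL-13, 9.83 after vitamin D and 6.04 after both. The part of these other markers in the results was not tested. In bulk RNA, fewer cells of a type and less RNA per cell cannot be told apart.

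The sequences that the members' promoters and small RNAs carry are given first, since IL-13 and vitamin D act through DNA-binding proteins. RefSeq promoters (build GRCh38.p14, 250 bases before to 50 after a start site) were matched for 85 members, 5 of them by accession, giving 141 promoters. The STAT6 motif searched was TTC and GAA with 4 bases of any kind between them, the spacing that STAT6 is known to bind, and it reads the same on both strands. It was present in 14 of 141 member promoters (9.93%), against 4.81% of promoters of all genes at the minimum level and 6.44% of all promoters in the table. Counted by gene, 11 members (12.9%) held it, against 6.42% of genes at the minimum level. These members were C21orf91, ELAVL2, FAM212B, FAM26E (named CALHM5 in RefSeq), FETUB, IQCH-AS1, LRRC8D, MAP2K6, PIK3IP1, PPFIBP2 and SGK1. The 4 promoters below are shown as examples of the motif's place in a promoter. In the ChIP data described below, FAM26E, SGK1 and FETUB had no STAT6 summit with IL-13 inside the gene or within 10 kb. The STAT6 region near LRRC8D lay downstream of the gene, 117 kb from its start site. With both treatments against untreated, FAM26E and LRRC8D were called higher in the authors' deposited table and FETUB and SGK1 were not called. PIK3IP1, not printed, was called lower. SGK1, LRRC8D and FETUB each have other promoters in RefSeq, not printed, in which the motif was not found. Capitals mark the motif. It begins 34 bases before the start site of the printed promoter of FAM26E, 139 before that of SGK1, 197 before that of LRRC8D and 200 before that of FETUB.
FAM26E, chr6:116511389-116511688, plus strand: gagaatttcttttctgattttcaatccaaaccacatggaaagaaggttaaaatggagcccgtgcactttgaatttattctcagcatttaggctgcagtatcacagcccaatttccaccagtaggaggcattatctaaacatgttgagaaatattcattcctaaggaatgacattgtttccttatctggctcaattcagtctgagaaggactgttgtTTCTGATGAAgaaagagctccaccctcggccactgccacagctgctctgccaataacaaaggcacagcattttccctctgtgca
SGK1, chr6:134318063-134318362, minus strand: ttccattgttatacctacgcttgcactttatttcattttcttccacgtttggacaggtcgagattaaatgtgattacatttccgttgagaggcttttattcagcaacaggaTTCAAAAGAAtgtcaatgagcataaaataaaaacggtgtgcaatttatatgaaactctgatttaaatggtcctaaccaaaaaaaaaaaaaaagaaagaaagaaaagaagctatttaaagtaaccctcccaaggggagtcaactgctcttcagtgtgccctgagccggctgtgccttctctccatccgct
LRRC8D, chr1:89821689-89821988, plus strand: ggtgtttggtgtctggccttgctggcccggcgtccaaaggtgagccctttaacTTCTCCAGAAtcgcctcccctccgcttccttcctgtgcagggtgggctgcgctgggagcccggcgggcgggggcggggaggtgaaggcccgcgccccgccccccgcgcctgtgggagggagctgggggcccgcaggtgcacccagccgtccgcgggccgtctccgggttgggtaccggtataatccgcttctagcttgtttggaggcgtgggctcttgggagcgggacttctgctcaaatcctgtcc
FETUB, chr3:186640149-186640448, plus strand: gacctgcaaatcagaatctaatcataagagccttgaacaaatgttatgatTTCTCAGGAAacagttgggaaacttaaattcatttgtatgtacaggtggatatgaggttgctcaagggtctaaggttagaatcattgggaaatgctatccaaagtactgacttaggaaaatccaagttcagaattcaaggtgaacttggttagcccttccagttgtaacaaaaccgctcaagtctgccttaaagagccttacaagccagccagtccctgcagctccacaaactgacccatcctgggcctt

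The VDR motif searched was a direct repeat of AGGTCA with 3 bases of any kind between the copies, on either strand and with at most 2 mismatches. It was present in 1 of 141 member promoters (0.709%), against 1.66% at the minimum level and 2.38% of all promoters. This promoter belongs to GPRIN2, and its repeat, in capitals, carries 2 mismatches and begins 70 bases before the start site of that promoter. The other GPRIN2 promoters in RefSeq held no such repeat. GPRIN2 is also 1 of 3 members where a STAT6 and a VDR summit lay within 500 bp of each other in the ChIP data described below. That pair lay downstream of the gene, 11.2 kb (STAT6) and 10.8 kb (VDR) from its start site. A match is a description of letters and not a bound site, and the promoters' build differs from that of the ChIP files, so the 2 were not joined by position.
GPRIN2, chr10:46556609-46556908, minus strand: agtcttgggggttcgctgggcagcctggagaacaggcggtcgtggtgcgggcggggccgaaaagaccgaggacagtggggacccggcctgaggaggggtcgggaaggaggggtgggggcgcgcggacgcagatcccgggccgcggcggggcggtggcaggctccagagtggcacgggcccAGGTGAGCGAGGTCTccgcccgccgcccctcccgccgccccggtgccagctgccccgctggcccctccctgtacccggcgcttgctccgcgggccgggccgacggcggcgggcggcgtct

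Among the members are 3 microRNA loci. MIR221 is on the X chromosome, and MIR23B and MIR27B lie together on chromosome 9 inside C9orf3 (an aminopeptidase gene), which is itself a member. A microRNA recognises its targets mainly through its seed, bases 2 to 8, shown in capitals. The seeds of the 3 main arms differ from each other.
miR-221-3p: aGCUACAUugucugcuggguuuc
miR-23b-3p: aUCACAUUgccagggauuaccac
miR-27b-3p: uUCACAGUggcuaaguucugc
The RNA libraries here measured these loci as gene intervals and not as mature microRNA. MIR23B was at 2.19 RPKM untreated, 3.34 after IL-13, 1.19 after vitamin D and 1.63 after both. MIR27B was at 2.85 RPKM untreated, 3.95 after IL-13, 1.57 after vitamin D and 2.24 after both. MIR221 was at 6.46 RPKM untreated, 8.91 after IL-13, 3.73 after vitamin D and 7.20 after both. The host C9orf3 was at 8.61 RPKM untreated, 13.1 after IL-13, 6.01 after vitamin D and 8.19 after both. The levels of MIR23B and MIR27B followed the order of the host. MIR221 lies on another chromosome, and its level with both was above untreated, where that of C9orf3 was below. None of the 3 microRNA loci passed adjusted p 0.05 for IL-13 against untreated in the authors' deposited table, and reads of host and microRNA cannot be told apart here.

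The members were chosen by the untreated, IL-13 and vitamin D levels, so these values are a description and carry no test. The median member was at 3.78 RPKM untreated, 6.70 after IL-13, 2.23 after vitamin D and 4.73 after both. The range ran from 0.113 RPKM (RASGRP1) to 156 (DSC3) untreated. Members under 1 RPKM untreated met the minimum only with IL-13, the group that the rule required to be high. Among them were SOX21, FETUB, TNFRSF19, CDH26, PPARGC1B, RASGRP1, FAM26E, CYP2J2 and CDC45. IL-13 raised 31 members at least 2-fold, vitamin D lowered 17 to 50% or less, and 5 met both limits. At 1.5-fold in both directions there were 42. In the authors' deposited tables, adjusted p 0.05 called 97 of 105 members higher with IL-13, where 12.3% of all tested genes were, and 92 of 104 tested lower with vitamin D, where 15.1% of all tested genes were. Both calls were met by 91. The 8 not called with IL-13 were MIR23B, MIR27B, MIR221, SNORD87, C1QTNF9B-AS1, IQCH-AS1, MAP2K6 and WNT2B. With vitamin D the members not called were MIR23B, MIR27B, MIR221, C1QTNF9B-AS1, IQCH-AS1, WNT2B, CDC45, EAF2, GEMIN8P4, LGALS7B, PPM1M and SLC25A33, and SNORD87, whose adjusted p is listed as 1 in the authors' deposited table, was read as not tested. For these the label holds by ratio only. 24 members overlap another gene and may share reads with it. LGALS7B has the near-identical copy LGALS7, GEMIN8P4 is a pseudogene, and C1QTNF9B-AS1 and IQCH-AS1 are antisense genes, so the levels of these are uncertain.

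Members just inside the IL-13 limit were WNT2B at a ratio of 1.306, DSC3 at 1.306 and SLC25A33 at 1.309, and the genes just outside were SMAD5 at 1.299, IFI16 at 1.298 and BCL6 at 1.297. At the vitamin D limit SLC25A33 (0.7698), PPM1M (0.769) and EFEMP1 (0.765) were just inside, and GALNT7 (0.771), PPP1R3D (0.773) and DOCK4 (0.776) just outside. The list is therefore cut from a continuous range.

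**Figure D1:**
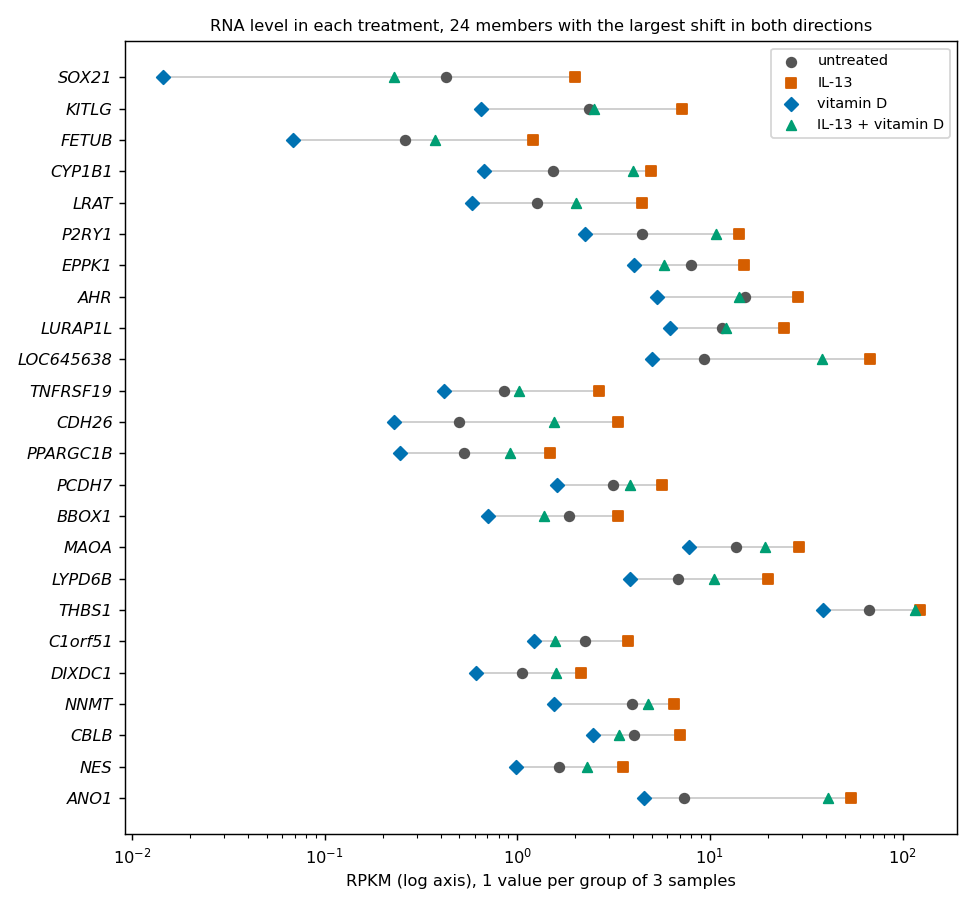
RNA level (RPKM, log axis; 1 authors' value per group of 3 samples, so no error bar) of the 24 members with the largest smaller shift, in the 4 conditions. By the rule every grey line runs from vitamin D to IL-13 through untreated; the triangle for both lies close to untreated for KITLG, AHR and LURAP1L, close to IL-13 for THBS1 and CYP1B1, and below untreated for SOX21, EPPK1, BBOX1, C1orf51 and CBLB.

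A transcription factor headed the list. SOX21, a SOX-family repressor expressed in progenitor cells, came first when members were ranked by the smaller of their IL-13 and vitamin D shifts, at 0.429 RPKM untreated, 2.004 after IL-13, 0.0145 after vitamin D and 0.229 after both. It reached the minimum level only with IL-13. Its level with vitamin D was below the 0.1 added to each RPKM, so that addition sets much of its vitamin D ratio. With both treatments it stayed below untreated, at log2 -0.68 ± 0.23 (SE; adjusted p = 0.0124) in the authors' deposited table. SOX2, a pluripotency factor that also maintains basal cells of the esophagus, was at 10.5 RPKM untreated, 15.6 after IL-13, 2.22 after vitamin D and 7.15 after both. Its level with both was again below untreated, at log2 -0.54 ± 0.06 (SE; adjusted p = 1.34e-15) in the authors' deposited table. So the pair of SOX genes ended on the vitamin D side of untreated.

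TP63 encodes p63, the factor that defines the basal layer of stratified epithelia. It was at 50.7 RPKM untreated, 72.3 after IL-13, 37.6 after vitamin D and 58.3 after both, the highest level of any transcription factor named here. With both it was above untreated by log2 0.20 ± 0.04 (SE; adjusted p = 1.86e-06) in the authors' deposited table. AHR, the aryl hydrocarbon receptor, a ligand-activated factor that senses xenobiotics, was at 15.3 RPKM untreated, 28.6 after IL-13, 5.31 after vitamin D and 14.1 after both. Its level with both did not pass the test against untreated, at log2 -0.11 ± 0.05 (SE; adjusted p = 0.124) in the authors' deposited table.

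BCL11B, a zinc-finger repressor with roles in skin and T cells, was at 3.05 RPKM untreated, 4.13 after IL-13, 1.49 after vitamin D and 2.64 after both. It ended slightly low, at log2 -0.21 ± 0.06 (SE; adjusted p = 0.00526) in the authors' deposited table. FOXQ1, a forkhead factor of epithelial cells, was at 2.14 RPKM untreated, 4.81 after IL-13, 1.57 after vitamin D and 4.03 after both and ended high, at log2 0.89 ± 0.10 (SE; adjusted p = 4.05e-18) in the authors' deposited table. The coactivator PPARGC1B, which promotes mitochondrial genes, was at 0.531 RPKM untreated, 1.48 after IL-13, 0.247 after vitamin D and 0.921 after both and ended high as well, at log2 0.78 ± 0.10 (SE; adjusted p = 1.27e-13) in the authors' deposited table. Transcriptional regulators thus fell on either side of untreated when the treatments were joined.

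Several members are secreted ligands or their partners. KITLG, the stem cell factor that activates the receptor KIT on mast cells and melanocytes, was at 2.37 RPKM untreated, 7.20 after IL-13, 0.646 after vitamin D and 2.49 after both. The level with both differed from untreated by log2 0.07 ± 0.08 (SE; adjusted p = 0.546) in the authors' deposited table, which did not pass the test. KIT itself stayed at or under 0.0219 RPKM in every group. THBS1, the matrix protein thrombospondin-1, was at 66.8 RPKM untreated, 123 after IL-13, 38.4 after vitamin D and 116 after both. It kept nearly all of its IL-13 level, with log2 0.79 ± 0.04 (SE; adjusted p = 1.41e-95) against untreated in the authors' deposited table. Its binding partner on the cell surface, CD47, was at 8.74 RPKM untreated, 12.1 after IL-13, 6.55 after vitamin D and 9.96 after both and was higher with both by log2 0.19 ± 0.06 (SE; adjusted p = 0.00719) in the authors' deposited table. WNT2B, a Wnt ligand, was at 0.794 RPKM untreated, 1.07 after IL-13, 0.573 after vitamin D and 0.573 after both, so it was as low with both as with vitamin D alone.

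Among receptors, the purinergic P2RY1, activated by ADP, was at 4.43 RPKM untreated, 14.2 after IL-13, 2.25 after vitamin D and 10.8 after both. It stayed high with both, at log2 1.27 ± 0.07 (SE; adjusted p = 6.16e-81) in the authors' deposited table. TNFRSF19, a receptor of the TNF family found on progenitor cells, was at 0.853 RPKM untreated, 2.65 after IL-13, 0.419 after vitamin D and 1.03 after both, and its log2 0.26 ± 0.13 (SE; adjusted p = 0.122) against untreated in the authors' deposited table did not pass the test. Further receptors were CALCRL, which responds to CGRP and adrenomedullin, NRP1, a co-receptor for semaphorins and VEGF, the serotonin receptor HTR7 and the BMP co-receptor RGMB. NRP1 was at 12.9 RPKM untreated, 17.98 after IL-13, 8.95 after vitamin D and 13.3 after both. CALCRL was at 0.723 RPKM untreated, 1.19 after IL-13, 0.307 after vitamin D and 0.599 after both. With both treatments none of NRP1, HTR7, RGMB and CALCRL was called in the authors' deposited table, with log2 0.03, -0.05, 0.17 and -0.25.

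Enzymes of small-molecule metabolism formed a further set. CYP1B1, a cytochrome P450 acting on estrogens and polycyclic hydrocarbons and a known AHR target, was at 1.53 RPKM untreated, 4.95 after IL-13, 0.672 after vitamin D and 3.996 after both. It stayed high with both, at log2 1.36 ± 0.08 (SE; adjusted p = 8.09e-59) in the authors' deposited table, unlike AHR, which was near its untreated level; the difference between the genes was not tested. AHRR, another known AHR target, was at or under 0.0840 RPKM in every group. LRAT, which esterifies retinol for storage, was at 1.27 RPKM untreated, 4.44 after IL-13, 0.584 after vitamin D and 2.01 after both and ended high at log2 0.64 ± 0.11 (SE; adjusted p = 9.79e-08) in the authors' deposited table.

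SULT1E1, the sulfotransferase that inactivates estrogens, was at 3.26 RPKM untreated, 4.49 after IL-13, 0.778 after vitamin D and 0.775 after both. With both it equalled the vitamin D level, with log2 -1.93 ± 0.14 (SE; adjusted p = 1.17e-40) against untreated in the authors' deposited table. CYP2J2, an arachidonic acid epoxygenase, was at 0.745 RPKM untreated, 1.12 after IL-13, 0.288 after vitamin D and 0.434 after both and also ended low, at log2 -0.65 ± 0.21 (SE; adjusted p = 0.00900) in the authors' deposited table. BBOX1, the last enzyme of carnitine synthesis, was at 1.86 RPKM untreated, 3.33 after IL-13, 0.706 after vitamin D and 1.38 after both, with log2 -0.40 ± 0.14 (SE; adjusted p = 0.0139) in the authors' deposited table. These 3 ended on the vitamin D side.

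ALOX15B, a lipoxygenase, was at 5.57 RPKM untreated, 13.02 after IL-13, 3.93 after vitamin D and 8.99 after both. MAOA, the amine oxidase that degrades serotonin and noradrenaline, was at 13.6 RPKM untreated, 29.1 after IL-13, 7.77 after vitamin D and 19.4 after both. CAT, the catalase that removes hydrogen peroxide, was at 18.9 RPKM untreated, 41.5 after IL-13, 14.2 after vitamin D and 30.6 after both. All 3 were higher with both than untreated, by log2 0.69, 0.51 and 0.70 in the authors' deposited table. NNMT, which methylates nicotinamide, was at 3.97 RPKM untreated, 6.51 after IL-13, 1.55 after vitamin D and 4.75 after both and was just past the test, at log2 0.26 ± 0.11 (SE; adjusted p = 0.0497) in the authors' deposited table. FETUB, a secreted inhibitor of astacin proteases, was at 0.262 RPKM untreated, 1.20 after IL-13, 0.0688 after vitamin D and 0.375 after both, with log2 0.36 ± 0.25 (SE; adjusted p = 0.299) in the authors' deposited table.

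Channels and transporters held several of the largest IL-13 ratios. ANO1, a calcium-activated chloride channel, was at 7.31 RPKM untreated, 53.7 after IL-13, 4.53 after vitamin D and 40.98 after both, a log2 change of 2.47 with both in the authors' deposited table. SLC26A2, a sulfate transporter, was at 2.70 RPKM untreated, 17.4 after IL-13, 1.86 after vitamin D and 8.72 after both, with log2 1.67 ± 0.06 (SE; adjusted p = 4.23e-156) in the authors' deposited table. FAM26E, a pore-forming protein of the CALHM family, was at 0.638 RPKM untreated, 6.55 after IL-13, 0.362 after vitamin D and 6.40 after both. It kept its whole IL-13 level, at log2 3.21 ± 0.11 (SE; adjusted p = 2.49e-194) against untreated in the authors' deposited table. KCNJ15, an inwardly rectifying potassium channel, was at 3.33 RPKM untreated, 5.05 after IL-13, 2.17 after vitamin D and 3.07 after both, with log2 -0.11 ± 0.09 (SE; adjusted p = 0.364) in the authors' deposited table. LRRC8D and LRRC8B are subunits of the volume-regulated anion channel. LRRC8D was at 11.8 RPKM untreated, 16.7 after IL-13, 8.51 after vitamin D and 13.4 after both. LRRC8B was at 3.49 RPKM untreated, 6.70 after IL-13, 2.58 after vitamin D and 5.25 after both. So 5 of these 6 ended above untreated, by log2 0.19 for LRRC8D and 0.58 for LRRC8B in the authors' deposited table, and KCNJ15 alone did not pass.

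Adhesion and matrix genes included CDH26, a cadherin known from eosinophilic esophagitis, at 0.498 RPKM untreated, 3.32 after IL-13, 0.228 after vitamin D and 1.56 after both. It ended high, at log2 1.55 ± 0.14 (SE; adjusted p = 3.37e-27) in the authors' deposited table. PCDH7, a protocadherin, was at 3.12 RPKM untreated, 5.67 after IL-13, 1.60 after vitamin D and 3.86 after both and ended high by log2 0.39 ± 0.07 (SE; adjusted p = 6.46e-08) in the authors' deposited table. DSC3, a desmosomal cadherin of the basal layers, was at 156 RPKM untreated, 204 after IL-13, 101 after vitamin D and 174 after both, the highest untreated level of all members. It rose with both by a small step, log2 0.16 ± 0.04 (SE; adjusted p = 0.00150) in the authors' deposited table. EPPK1, the cytoskeletal linker epiplakin, was at 8.02 RPKM untreated, 15.1 after IL-13, 4.05 after vitamin D and 5.78 after both and ended low, at log2 -0.46 ± 0.06 (SE; adjusted p = 1.23e-11) in the authors' deposited table. COL5A2, a fibrillar collagen chain, was at 3.90 RPKM untreated, 6.92 after IL-13, 2.43 after vitamin D and 4.72 after both, and CAV1, the main protein of caveolae, was at 147 RPKM untreated, 194 after IL-13, 112 after vitamin D and 179.7 after both.

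Signalling genes also split. RASGRP1, an exchange factor that activates RAS, was at 0.113 RPKM untreated, 1.62 after IL-13, 0.0457 after vitamin D and 1.93 after both. It was above its IL-13 level with both, with log2 3.80 ± 0.15 (SE; adjusted p = 9.41e-141) against untreated in the authors' deposited table, the largest of all members. SGK1, a serum and glucocorticoid regulated kinase, was at 24.5 RPKM untreated, 38.04 after IL-13, 11.6 after vitamin D and 23.96 after both, with log2 -0.03 ± 0.05 (SE; adjusted p = 0.748) in the authors' deposited table. PIK3IP1, an inhibitor of PI3 kinase, was at 20.3 RPKM untreated, 27.2 after IL-13, 9.58 after vitamin D and 13.2 after both and ended low, at log2 -0.61 ± 0.06 (SE; adjusted p = 4.36e-26) in the authors' deposited table. CBLB, a ubiquitin ligase that restrains receptor signalling, was at 4.04 RPKM untreated, 6.99 after IL-13, 2.47 after vitamin D and 3.37 after both and ended low by a smaller step, log2 -0.25 ± 0.07 (SE; adjusted p = 0.00301) in the authors' deposited table. DIXDC1, a Wnt pathway regulator, was at 1.06 RPKM untreated, 2.15 after IL-13, 0.613 after vitamin D and 1.59 after both and ended high at log2 0.55 ± 0.10 (SE; adjusted p = 9.70e-08) in the authors' deposited table.

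The remaining members of the 20 that ranked highest by the smaller of the shifts were of mixed kind. LURAP1L, an adaptor-like protein, was at 11.5 RPKM untreated, 24.3 after IL-13, 6.18 after vitamin D and 12.1 after both. LOC645638, a noncoding locus whose accession belongs to WFDC21P in RefSeq, was at 9.29 RPKM untreated, 67.6 after IL-13, 4.995 after vitamin D and 38.01 after both, with log2 1.99 ± 0.08 (SE; adjusted p = 5.99e-123) for both in the authors' deposited table. LYPD6B, a membrane-anchored protein of the LY6 family, was at 6.80 RPKM untreated, 20.1 after IL-13, 3.86 after vitamin D and 10.5 after both, with log2 0.62 ± 0.08 (SE; adjusted p = 2.68e-15) in the authors' deposited table. C1orf51 (CIART), a repressor of the circadian clock, was at 2.26 RPKM untreated, 3.78 after IL-13, 1.22 after vitamin D and 1.57 after both and ended low, at log2 -0.49 ± 0.13 (SE; adjusted p = 8.61e-04) in the authors' deposited table. LURAP1L was not called with both, at log2 0.07 ± 0.06 (SE; adjusted p = 0.437) in the authors' deposited table, and the other 3 were.

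With both treatments against untreated, 46 of 105 members (43.8%) were called higher at adjusted p 0.05 in the authors' deposited table, where 16% of all tested genes were. Called lower were 11 members (10.5%), where 15.7% of all tested genes were, and 48 were not called. The median log2 change of the members was 0.15, beside -0.000422 over all genes tested. The samples with both treatments were not used by the rule, but the untreated samples were. The 11 lower were SULT1E1, SOX21, CYP2J2, PIK3IP1, SOX2, OLFML2A, C1orf51, EPPK1, BBOX1, CBLB and BCL11B. The 5 largest rises were those of RASGRP1, FAM26E, ANO1, LOC645638 and SLC26A2, and the 5 smallest called were those of DSC3, OSBPL10, SPTBN1, EFEMP1 and LRRC8D. Among the 425 genes raised by IL-13 and not lowered by vitamin D, 336 (79.1%) were called higher and 0 lower. Among the 717 lowered by vitamin D and not raised by IL-13, 2 of 716 tested were called higher and 552 (77.1%) lower.

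**Figure D2:**
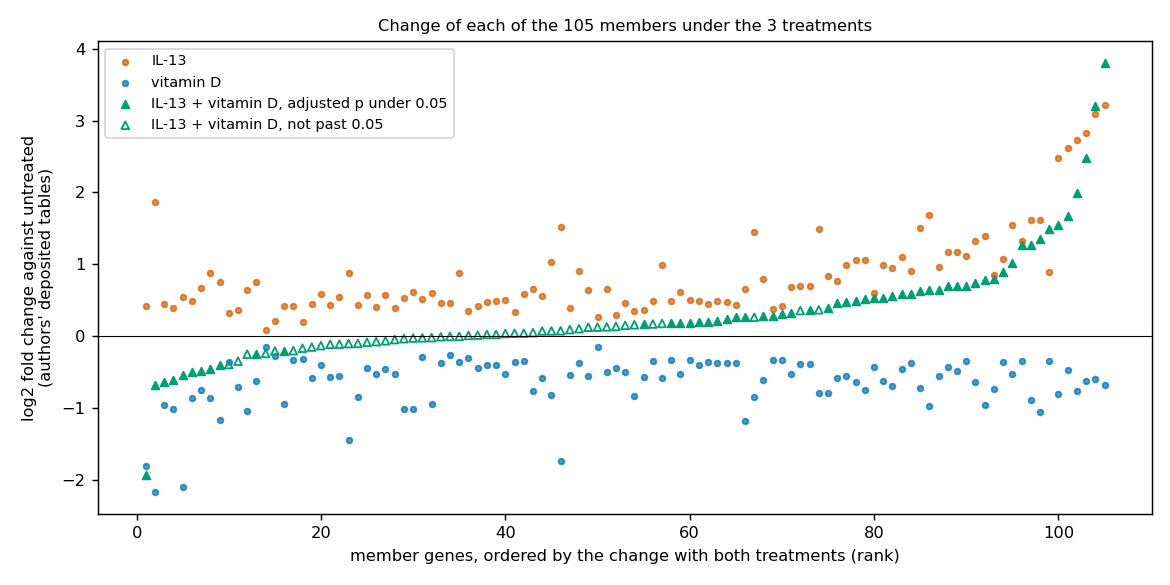
Log2 fold change against untreated of each of the 105 members with IL-13, vitamin D or both (the authors' deposited tables; 1 value per comparison), with members ordered by the change with both. The filled triangles, past adjusted p 0.05 in the authors' deposited table, are 11 members at the low end and 46 toward the high end; the open ones, most of them between, are the 48 not called.

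IL-13 added to vitamin D raised most members. Both against vitamin D called 91 of 104 tested members (87.5%) higher in the authors' deposited table, where 16.4% of all tested genes were, and 0 lower, where 16.9% were. The median log2 change was 0.74, beside 0.000547 over all genes tested. The share was not particular to the members. Among genes raised by IL-13 and not lowered by vitamin D, 355 of 420 tested (84.5%) were called higher in the authors' deposited table. Among genes lowered by vitamin D and not raised by IL-13, 134 of 704 (19.0%) were. Against vitamin D, KITLG was higher by log2 1.82 ± 0.09 (SE; adjusted p = 3.91e-80), AHR by 1.35 ± 0.06 (SE; adjusted p = 4.88e-125) and SOX21 by 1.37 ± 0.22 (SE; adjusted p = 2.98e-09) in the authors' deposited table. SULT1E1 was an exception with log2 -0.03 ± 0.18 (SE; adjusted p = 0.913) in the authors' deposited table, as was WNT2B with 0.00 ± 0.18 (SE; adjusted p = 0.991). This comparison shares the vitamin D samples with the rule, which required them to be low.

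Vitamin D added to IL-13 lowered most members. Both against IL-13 was not among the tables and was derived as the difference of the log2 changes against untreated, with a z test adjusted by Benjamini-Hochberg over all genes. It called 87 of 104 members (83.7%) lower, where 11.9% of all tested genes were, and 2 higher, where 12.3% were. With the variance taken as the sum of those of the 2 tables, 82 were lower and 1 was higher. The median was -0.49, beside -0.01 over all genes tested. Among genes lowered by vitamin D and not raised by IL-13, 544 of 704 tested (77.3%) were called lower, so this share was not particular to the members either. Among genes raised by IL-13 and not lowered by vitamin D, 88 of 413 (21.3%) were. By this test, derived from the authors' deposited tables, SOX21 was lower at log2 -2.55 ± 0.20 (SE; adjusted p = 7.37e-34), SULT1E1 at -2.35 ± 0.15 (SE; adjusted p = 1.27e-50), KITLG at -1.45 ± 0.09 (SE; adjusted p = 2.10e-62) and EPPK1 at -1.33 ± 0.08 (SE; adjusted p = 7.72e-64). The 2 higher, named after their values were seen, were, by the test derived from the authors' deposited tables, RASGRP1 at log2 0.59 ± 0.17 (SE; adjusted p = 0.00366) and CDC45, a replication factor that was not called lower with vitamin D alone, at 0.61 ± 0.17 (SE; adjusted p = 0.00268). By RPKM these steps were smaller, so their size is uncertain. RASGRP1 was at 1.62 RPKM after IL-13 and 1.93 after both, and CDC45 at 1.33 and 1.83. Members that did not pass, again as derived from the authors' deposited tables, included THBS1 at log2 -0.06 ± 0.03 (SE; adjusted p = 0.177) and FAM26E at 0.12 ± 0.13 (SE; adjusted p = 0.584). By RPKM FAM26E went the other way, at 6.55 after IL-13 and 6.40 after both. The SE of THBS1 is too low, because its p-value for both against vitamin D was too small to invert and entered as an SE of 0. ANO1 and SLC26A2, both called lower here, also had such p-values, so their SE is too low as well. This comparison shares the IL-13 samples with the rule, which required them to be high.

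By RPKM, 69 members lay between untreated and IL-13 when both were given, and 32 between vitamin D and untreated. RASGRP1 and CDC45 lay above IL-13, and SULT1E1 and SNORD87 at or below vitamin D. Set beside the sum of the single log2 ratios, which the rule chose and which shares its untreated samples, the ratio with both was within 0.3 for 71 members (67.6%), above it by more for 21 and below it by more for 13. Over all genes at the minimum level 94.3% were within 0.3. Those genes were not chosen for a shift with either treatment as the members were, so the shares are not like for like. The median difference was 0.07 among members, with a range of -0.61 to 1.07. SOX2 lay farthest above the sum, at a log2 ratio of -0.54 with both against a sum of -1.62. CDC45, NNMT, RASGRP1, CYP1B1, GPRIN2 and THBS1 followed, above by 0.87, 0.85, 0.79, 0.78, 0.71 and 0.71. Farthest below the sum lay SNORD87, LGALS7B, SOX21, SLC26A2 and SULT1E1, with differences of -0.61, -0.56, -0.47, -0.47 and -0.45. No test of these differences was made, since the sum holds the contrasts of the rule.

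**Figure D3:**
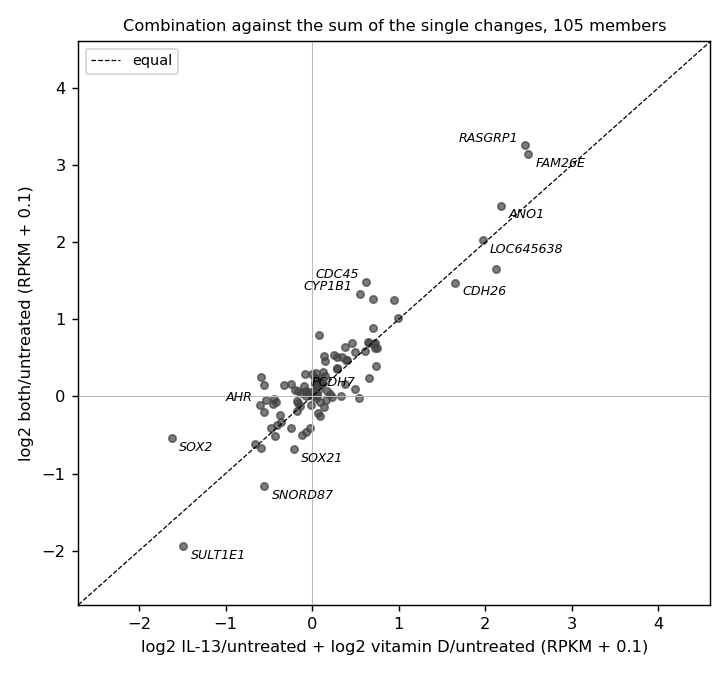
Log2 RPKM ratio of both to untreated (0.1 added; vertical) against the sum of the single log2 ratios (horizontal) for the 105 members, 1 point per gene, with the dashed line marking equality. Of the points, 71 lie within 0.3 of the line; SOX2 lies above it by 1.07 and SULT1E1 below it by 0.45.

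STAT6 binding was read from the summits called in 1 library with IL-13 and 1 untreated, and a gene was counted when a summit lay inside it or within 10 kb. With IL-13 this held for 33 of 105 members, 31.4% (exact 95% binomial interval 22.7 to 41.2), and untreated for 2. The share was 35.5% among genes raised by IL-13 only, 11% among genes lowered by vitamin D only and 9.48% among all genes at the minimum level. Members were longer, with a median span of 40.7 kb beside 24.7 kb over all genes, 32 kb for the IL-13 group and 25.7 kb for the vitamin D group, so longer windows were searched for them. Within 5 kb of the start site, where length does not enter, 9.52% of members and 3.07% of all genes held a STAT6 summit. Intervals cover counting over genes only, and there was no replicate library.

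VDR summits with vitamin D were near 35 of 105 members, 33.3% (24.4 to 43.2), and untreated near 8. This share was 33.4% among genes raised by IL-13 only, 24% among genes lowered by vitamin D only and 29.4% among all genes at the minimum level. Within 50 kb of the start site it was 43.8% of members and 43.1% of all genes. So the members' share with STAT6 stood above that of all genes with its whole interval, and the share with VDR did not.

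**Figure D4:**
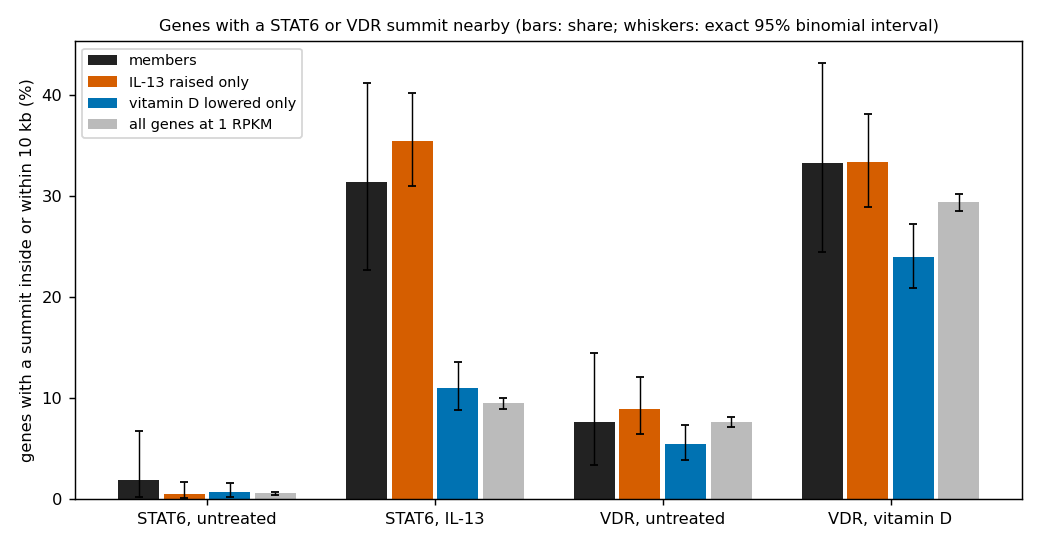
Share of genes (%) with a STAT6 or VDR summit inside the gene or within 10 kb, by library (1 per condition) and gene group; whiskers are exact 95% binomial intervals over genes. For STAT6 with IL-13 the members (31.4%) stand beside the IL-13 raised genes (35.5%) and above all genes (9.48%); for VDR with vitamin D the members (33.3%) and all genes (29.4%) overlap.

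The calls with both treatments were also counted apart for members with and without a STAT6 summit. Among the 33 with one, 21 were called higher and 1 lower with both against untreated in the authors' deposited table. Among the 72 without, 25 were called higher and 10 lower in the authors' deposited table. Over all tested genes, with or without a summit, 16% were called higher and 15.7% lower. The median log2 changes with both were 0.26 and 0.04, whereas with IL-13 alone they were 0.66 and 0.60 and with vitamin D alone -0.55 and -0.56. The 1 with a STAT6 summit that was lower was EPPK1, which also had a STAT6 summit untreated. SOX21, SOX2, KITLG, AHR, CYP1B1, FAM26E and RASGRP1 had no STAT6 summit with IL-13. Members with a VDR summit were called higher in 18 of 35 and lower in 2, and those without in 28 of 70 and 9, in the authors' deposited table. These splits were made after the values were seen and were not tested.

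The strongest STAT6 regions with IL-13, in hg19 coordinates, mostly lay in introns or beyond the gene's end. The highest summit fold enrichment, 23.5, was at chr15:45448582-45450600, within 10 kb of the end of SHF in an intron of DUOX1 as the file annotates it. Next was chr5:149239947-149241175 at 19.3, beyond PPARGC1B in an exon annotated to PDE6A. An intron of ANO1 held chr11:70005292-70006506 at 17.1, the strongest of its 4 regions, 74.5 kb from the start site. An intron of PCDH7 held chr4:30758641-30759957 at 15.1, and an intron of ANKRD33B chr5:10629878-10630748 at 12.4. CDC45 held chr22:19470889-19471772 at 11.1, only 3.87 kb from its start site. The file's fold enrichments are the authors' values, used here to rank regions within 1 list.

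VDR regions with vitamin D were led by chr2:56114695-56115769 in an intron of EFEMP1, a matrix glycoprotein, with a fold enrichment of 40.7. It was followed by introns of KIAA0922 (chr4:154403809-154404401, 19.98), CALCRL (chr2:188224553-188225258, 15.99), OSBPL10 (chr3:31952972-31953592, 15.99) and C9orf3 (chr9:97688586-97689418, 13.7). All of these except that of OSBPL10 also had a VDR summit within 500 bp in the untreated library. TP63 had an intronic VDR region at chr3:189551729-189551930 with 7.0, FETUB a promoter region at chr3:186358288-186358808 with 8.4, and CYP1B1 an upstream one at chr2:38304766-38304911 with 6.0. Both factors were near 12 members: ANO1, C9orf3, DSE, EFEMP1, GPRIN2, LDLRAD3, LYPD6B, MTUS1, OSBPL10, SGMS1, SHF and STARD5. STAT6 alone was near 21, VDR alone near 23 and neither near 49. Both were near 11.4% of members, 18.1% of genes raised by IL-13 only and 4.75% of all genes at the minimum level. Summits of both within 500 bp of each other occurred near 3 of the 12, STARD5, SGMS1 and GPRIN2, with STARD5's at chr15:81614835-81615299 close to its start site.

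H3K27ac, a mark of active promoters and enhancers, was compared at these regions within 500 bp of the summit. Near members there were 52 STAT6 regions, of which 39 had an H3K27ac peak untreated and 42 with IL-13, a gain at 5 and a loss at 2. Over the 1360 STAT6 regions near any gene at the minimum level the peak was gained at 71 (5.22%) and lost at 112 (8.24%). Where both libraries had a peak, the median centred log2 change with IL-13 was 0.40 over 37 regions near members and 0.17 over 909 near any gene. At 49 VDR regions near members the peak was gained at 2 and lost at 3 with vitamin D, with a median of 0.01 beside 0.13 near any gene. The untreated H3K27ac library was deeper, with 227856 summits beside 126701 to 145344 in the treated ones, so log2 changes were centred on the median over all genes' start sites.

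**Figure D5:**
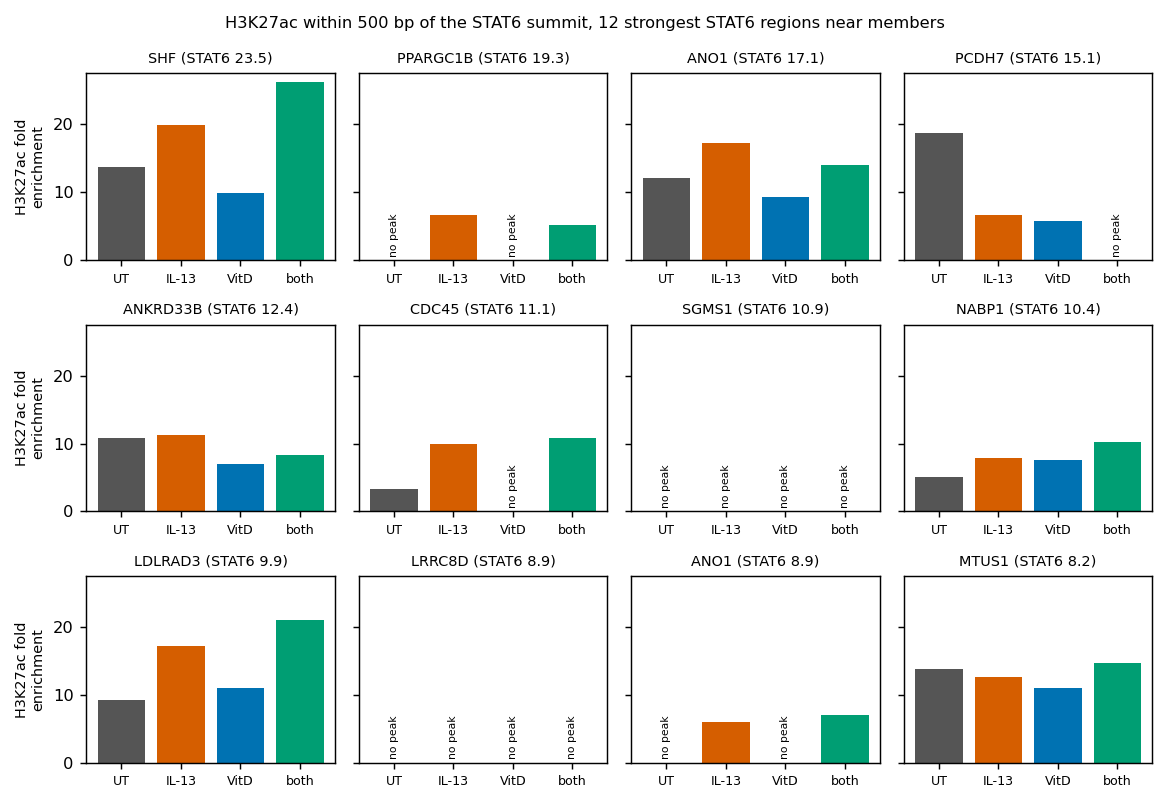
H3K27ac fold enrichment (authors' values, not centred; 1 library per condition, so no error bars) within 500 bp of the STAT6 summit at the 12 strongest STAT6 regions near members, with the STAT6 fold enrichment in each title; UT is untreated, and no peak means none was called. PPARGC1B and 1 of the ANO1 regions have peaks only in the IL-13 and the combined library, PCDH7 is at 18.8 untreated and 6.61 with IL-13, and SGMS1 and LRRC8D have none.

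At single regions the pattern varied. Beyond PPARGC1B no H3K27ac peak was called untreated or with vitamin D, and the fold enrichment was 6.61 with IL-13 and 5.11 with both. In CDC45 it was 3.34 untreated, 9.92 with IL-13, not called with vitamin D and 10.9 with both. Near SHF it was 13.8, 19.8, 9.82 and 26.2 in the same order. In PCDH7 it went the other way, 18.8 untreated, 6.61 after IL-13, 5.78 after vitamin D and not called after both.

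At the members' start sites the median changes of the marks were near 0. The start site was the upstream end of the whole gene interval, so other promoters inside a gene were not read. Within 1 kb of the start site the median centred log2 change of H3K27ac was 0.07 with IL-13 (74 members with a peak in both libraries), -0.06 with vitamin D (79) and 0.10 with both (76). In genes raised by IL-13 only these were 0.14, 0.04 and 0.14, and in genes lowered by vitamin D only -0.04, -0.05 and -0.09. For H3K4me3, the mark of active start sites, the members' medians were 0.06, 0.03 and 0.03. For H3K9ac, 30 members lay above and 29 below the median of all genes with IL-13, 31 and 28 with vitamin D, and 31 and 23 with both. Fewer members than other genes had an H3K27ac peak there at all, 80.0% untreated beside 91.7% of all genes, and members were also lower in RNA, with an untreated median of 3.78 beside 8.84 RPKM.

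The highest centred H3K27ac changes at start sites with IL-13 were at KCNJ15 (centred log2 0.91), LGALS7B (0.82) and KIAA0922 (0.64), and the lowest at TMTC3 (-0.55), C21orf91 (-0.53) and OSBPL10 (-0.53). With vitamin D the highest were at ELAVL2 (0.92), EPPK1 (0.80) and PPM1M (0.80), and the lowest at TNFRSF19 (-0.59), MAOA (-0.55) and LYPD6B (-0.53). Centring subtracted the median over all genes, -0.51 with IL-13 and -0.33 with vitamin D. Uncentred, the rises were smaller. With IL-13 the fold enrichment went from 5.01 to 6.61 at KCNJ15, 5.84 to 7.27 at LGALS7B and 10.9 to 11.9 at KIAA0922. With vitamin D it went from 4.59 to 6.93 at ELAVL2. EPPK1 had more H3K27ac with vitamin D and less RNA, but its fold enrichments were low, 2.92 untreated and 4.04 after vitamin D. No peak was called there with IL-13 or with both. MAOA had less H3K27ac and less RNA with vitamin D. Its H3K27ac fold enrichments were 15.9 untreated, 16.5 after IL-13, 8.67 after vitamin D and 15.97 after both. SOX2, whose RNA was lowest with vitamin D, had a centred H3K27ac change of 0.43 with it. No start-site H3K27ac peak was called for SOX21 or ANO1 in any of the 4 libraries. Only the outermost start site of each gene was read. Inside ANO1, at a STAT6 region, H3K27ac had a fold enrichment of 13.8 untreated.

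Members were few in the pathway lists. Beside the list counts with both below, 16% of all tested genes were called higher and 15.7% lower against untreated in the authors' deposited table. Of 25 basal and progenitor genes, SOX2 and TP63 were members. Of the 25 tested, 7 were higher and 12 lower with both against untreated in the authors' deposited table, with a median log2 of -0.17. CD44, DST and ITGA6 of this list were also called higher with IL-13 and lower with vitamin D without reaching both fold limits. CD44, an adhesion receptor, was at 96.2 RPKM untreated, 143 after IL-13, 82.9 after vitamin D and 134 after both, and DST, a hemidesmosome linker, at 121 RPKM untreated, 135 after IL-13, 73.7 after vitamin D and 104 after both. Of 30 genes of the epithelial IL-13 response, ALOX15B, ANO1 and CDH26 were members, and 17 of 23 tested were higher and 0 lower with both in the authors' deposited table, with a median of 1.94. That list was made of genes known to respond and its direction is no independent evidence.

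Of 39 retinoid and steroid metabolism genes, LRAT and SULT1E1 were members, and 11 of 34 tested were higher and 9 lower with both in the authors' deposited table. CRABP2, which carries retinoic acid, was called likewise without reaching both fold limits, at 406 RPKM untreated, 510.04 after IL-13, 285 after vitamin D and 389.6 after both. DSC3 was the only member among 36 cell junction genes, of which 14 of 34 tested were higher and 14 lower with both in the authors' deposited table. Its desmosomal partner DSG3 was at 437 RPKM untreated, 505 after IL-13, 279 after vitamin D and 346 after both. The lists of VDR targets, of the JAK-STAT pathway with the IL-4 and IL-13 receptors, and of squamous differentiation held no member. The rule for the members had left out the KRT genes that the differentiation list holds. Of the VDR targets, 27 of 34 tested were higher and 3 lower with both, and of the differentiation genes 4 of 39 higher and 29 lower, in the authors' deposited table. VDR itself was called higher with IL-13 and lower with vitamin D in the authors' deposited tables, by less than the fold limits. The remaining lists, the Wnt, Notch, TGF-beta and BMP, EGF and FGF, NF-kappaB, interferon, cytokine and cell cycle genes, held no member either. The lists do not hold every gene of a pathway. WNT2B, DIXDC1, RGMB, KITLG and CDC45, members named above by such roles, were not in them.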

How the data were processed

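RNA was measured in 12 samples (3 per treatment) and ChIP in 16 (1 library each). The submitters' processing notes name MACS2, Bowtie, STAR, SAMtools, Trim Galore and 2 names of 1 build, hg19 and GRCh37; versions, roles and settings are not stated in the sources used here. The authors deposited 4 gene tables in which each group has 1 RPKM column, per the file headers. The log2 fold changes, p-values and adjusted p-values are also the authors' deposited values, from a test that no source used here describes, and an adjusted p of 1 was read as not tested. The table named for IL-13 against both holds vitamin D against both, per the file headers and its values. RPKM gives no read depth, so the depth behind each value is unknown. In the peak lists, pileup is a signal (fragment height at the summit), fold enrichment is the authors' ratio of pileup to background, and −log10 p and q values were deposited by the authors, as the file headers show.

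The members and the 20 gene lists were chosen with earlier results of these data known. Members were found with 0.1 added to each RPKM. Calls used the deposited adjusted p of 0.05. Both against IL-13 was a z test on the difference of deposited log2 changes, with a variance derived from the 4 tables. Benjamini-Hochberg adjustment was over 14734 genes. The 11 genes whose tables disagreed were left out of this test. It was tried on simulated data in which each gene had the same spread in every group and the comparisons agreed exactly. Data that depart from this were not simulated. P-values measure only the spread between the authors' samples, which may be technical. Named genes were the 20 with the largest smaller shift, those changed most and least with both, those near both factors or the strongest summits, list members, regulators and receptors by role, genes at the thresholds, and the largest H3K27ac changes; other members were added by role after their values were seen. Summits that share a start and an end were counted as 1 region. Promoter and microRNA sequences came from RefSeq (GRCh38.p14). Python 3.11.15, pandas 2.3.3, numpy 2.4.6, scipy 1.17.1 and matplotlib 3.10.9 were used. Alternatives for the pseudocount, minimum, folds, threshold, variance, windows and centring were tried.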

Additional observations from a re-analysis of the deposited data

How the results depend on the processing

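Over 17 results and 17 alternatives, 162 of 191 values stayed within the 95% interval of the main value (for the number of members, within 1.5 times it) and 29 did not. The number of members, 105, was 63 with a pseudocount of 1, 158 with no minimum, 62 with a minimum of 5 RPKM and 42 with folds of 1.5 and 0.67. The share called higher with both against untreated (43.8%) was 57.1% at the stricter folds and 54.8% at 5 RPKM. Against vitamin D (87.5%) it was 95.2% at the stricter folds and also with a pseudocount of 1, 98.4% at 5 RPKM, 95.6% in members past both single tests and 96% by deposited fold changes. The share lower against IL-13 (83.7%) was 92.9% at the stricter folds, 90.5% with a pseudocount of 1, 93.3% by deposited fold changes and 69.7% with no minimum. The STAT6 share (31.4%) was 20% with only regions of −log10 q of at least 5 and 9.52% within 5 kb of the start site, and the VDR share (33.3%) was 23.8%, 16.2% and, within 50 kb, 43.8%. The share between untreated and IL-13 was 75.8% at 5 RPKM. At the stricter folds median H3K27ac was 0.20 with IL-13 and -0.026 with both, and H3K4me3 0.11 with IL-13; uncentred, H3K27ac was -0.44 (IL-13), -0.39 (vitamin D) and -0.39 (both), and H3K4me3 0.18 with vitamin D and 0.10 with both. For these changes the cause was not tested beyond the choice itself. Leaving out the 24 members that overlap another gene, or those under 200 bases long, was chosen after seeing the data and moved no value past its interval. No paired analysis was possible because the tables hold 1 value per group, and for the same reason leaving out replicates was not run.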
